A study of Homo sapiens with 33 samples.

Results

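Aldehyde dehydrogenases (ALDH) oxidise aldehydes to carboxylic acids and use NAD or NADP as cofactor. The family clears aldehydes that arise from lipid peroxidation, alcohol and amino acid breakdown, and its ALDH1A branch makes retinoic acid, the ligand of the retinoic acid receptors. High ALDH activity is widely used as a marker of stem-like and drug-tolerant tumour cells, and the activity assay behind that use does not single out an isoform. Expression was therefore followed isoform by isoform for 10 ALDH genes in 2 urothelial carcinoma cell lines made resistant to FGFR inhibition. A gene was measured where a probe set was annotated to its symbol alone, with the brightest by mean over all 33 arrays kept for each symbol. This gave a value to 9 of the 10 genes, out of 22465 genes measured in the same way, and each of the 9 had exactly 1 such probe set. The probe set of ALDH4A1, a mitochondrial enzyme of proline breakdown, is shared with a microRNA gene, so ALDH4A1 has no value here.

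The arrays were Affymetrix Human Transcriptome Array 2.0, with 24 arrays of RT112 and 9 of RT4. Both are established human bladder cancer lines that depend on an FGFR3 fusion protein, and PD173074 (PD) is a small-molecule inhibitor of FGF receptors. There were 11 conditions with 3 arrays each. In RT112 these were the resistant derivatives R1 and R3 kept in 1 µM PD and R2 kept in 2 µM PD, the same derivatives after 4 to 6 passages out of drug, parental cells given PD for 24 h (acute treatment, at a dose on these arrays not given in the sources used here), and untreated parental cells. In RT4 they were R1 kept in 1 µM PD, R1 after 4 to 6 passages out of drug, and untreated parental cells, with no acute treatment. Each derivative is a single long-term selection from its parental line, R3 is a mixed population of cells with and without a mutant HRAS allele, and the 2 lines were grown in different media. The labels do not say whether the 3 arrays of a condition came from separate cultures, so p-values measure the spread between these arrays, which may be technical. In bulk RNA, fewer cells with a transcript and less transcript per cell cannot be told apart.

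Values are log2 signals from robust multi-array averaging, as deposited. Array medians ran from 4.86 to 5.08, and the medians of 23 background probe sets from 2.77 to 6.39. The levels of ALDH2 on all arrays and of ALDH1A1 and ALDH7A1 on most RT112 arrays lie inside that background range, so a difference that starts or ends there may understate the change. The R1 arrays of both lines for ALDH3A1 lie close to its upper end, at 6.12 to 6.62. The level of one gene is not set against that of another, since each probe set has its own brightness. Keratins KRT7, KRT8, KRT18 and KRT19 and E-cadherin (CDH1) were at 13.04 or above on every array. Of the markers of other cell types, PTPRC (immune cells) was at most 4.45, KDR (endothelium) at most 4.62 and ALB (hepatocytes) at most 4.54. Not all markers on these lists were that low. CD68 of the immune list was at 6.49 to 10.08, and TTR and CYP3A4 of the hepatocyte list and CDH5 of the endothelial list reached 6.86, 6.41 and 6.5. Of the fibroblast markers, 8 of 9 were measured, and their summed log2 level was 48.0 to 49.2 in R1 in drug and 47.5 to 48.6 in R2 in drug, against 41.9 to 42.3 in untreated RT112. Among them LUM (9.33 to 13.79 in RT112) was far above background, while PDGFRA and PDGFRB were at most 4.62. The part of this shift in the ALDH differences was not tested. Parental RT4 replicate 1 and RT112 R1 in drug replicate 3 had the lowest correlations with the other arrays of their condition (0.981 and 0.977), and results that rest on them are also given without them.

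Promoter sequences are shown for the 2 ALDH1A genes, which differed between the untreated cell lines in opposite directions, for ALDH1B1, the gene with the largest acute fall among the 9, and for the downstream of the 2 annotated starts of ALDH3A2, which moved most like ALDH1A3. The windows run from 250 bases before to 50 bases after the annotated start and are RefSeq sequences of GRCh38.p14, 5′ to 3′ on the strand of the gene. The table held promoters for 7 of the 10 genes. It did not list ALDH2, ALDH3A1 and ALDH3B2. Capitals mark the core of the xenobiotic response element (GCGTG, either strand), the site of the aryl hydrocarbon receptor.
ALDH1A1 promoter: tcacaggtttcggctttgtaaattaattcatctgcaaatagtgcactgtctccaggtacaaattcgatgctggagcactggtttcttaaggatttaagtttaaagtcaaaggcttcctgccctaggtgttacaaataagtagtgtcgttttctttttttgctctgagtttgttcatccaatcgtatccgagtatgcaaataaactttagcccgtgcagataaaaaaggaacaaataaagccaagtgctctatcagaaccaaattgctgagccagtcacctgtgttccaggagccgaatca
ALDH1A3 promoter: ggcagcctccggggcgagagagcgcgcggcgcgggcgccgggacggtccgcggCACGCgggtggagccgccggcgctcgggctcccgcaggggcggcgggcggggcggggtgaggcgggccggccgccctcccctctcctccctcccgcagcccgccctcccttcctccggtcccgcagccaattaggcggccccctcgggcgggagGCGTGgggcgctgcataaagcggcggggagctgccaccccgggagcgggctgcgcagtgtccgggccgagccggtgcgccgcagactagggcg
ALDH1B1 promoter: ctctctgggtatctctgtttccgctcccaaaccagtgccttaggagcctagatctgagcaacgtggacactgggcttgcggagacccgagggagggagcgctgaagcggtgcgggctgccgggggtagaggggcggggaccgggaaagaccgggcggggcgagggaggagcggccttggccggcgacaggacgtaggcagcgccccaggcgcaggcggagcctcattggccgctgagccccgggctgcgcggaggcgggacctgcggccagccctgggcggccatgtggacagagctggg
ALDH3A2 promoter: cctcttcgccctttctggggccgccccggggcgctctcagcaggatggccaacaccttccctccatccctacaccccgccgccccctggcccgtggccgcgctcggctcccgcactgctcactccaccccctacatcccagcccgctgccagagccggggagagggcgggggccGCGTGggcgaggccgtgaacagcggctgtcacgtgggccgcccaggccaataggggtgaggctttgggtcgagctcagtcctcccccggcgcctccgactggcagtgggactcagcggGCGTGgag
ALDH1A1 lies at chr9:72953004-72953303 (minus strand) with 40.3% G and C, and ALDH1A3 at chr15:100879581-100879880 (plus strand) with 81.7%. ALDH1B1 lies at chr9:38392452-38392751 (plus strand), and the ALDH3A2 window at chr17:19648501-19648800 (plus strand). The xenobiotic core was found 2 times each in the ALDH1A3 window and the ALDH3A2 window shown. It was in none of the other 8 windows of these genes, among them that of the upstream ALDH3A2 start, while 36.5% of 35116 promoters of this length hold it. The antioxidant response element core TGACNNNGC, the binding site of NRF2, was in none of the 10 windows and in 13.3% of all promoters. The 2 cores did not overlap in any window. These are matches of letters in a short window and do not show binding.

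The 16 comparisons were each tested with limma on 3 arrays against 3, with Benjamini-Hochberg adjustment over 22465 genes and a threshold of 0.01, and adjusted p-values come from that test unless another setting is named. The RT112 comparisons with untreated parental cells share the same 3 control arrays, as do those of RT4. After acute PD, 2 of the 9 genes passed, beside 24.5% of all genes. Of the derivatives in drug against parental cells, 3 of 9 passed in R1 (11.7% of all genes), 2 in R2 (18.0%) and 0 in R3 (1.95%, with 6213 genes at an unadjusted p under 0.05). Out of drug against parental cells, 1 passed in R1 (1.45%), 2 in R2 (6.87%) and 0 in R3 (3.18%, with 6359 genes at an unadjusted p under 0.05). In drug against out of drug, the counts were 1 in R1 (5.68%), 3 in R2 (10.2%) and 0 in R3 (0% of all genes, with 1767 at an unadjusted p under 0.05). Between derivatives in drug, 2 passed in R1 against R3 (4.77%) and 0 in R2 against R3 (3.15%). In RT4, 0 passed in R1 in drug against parental (5.86%), 1 in R1 out of drug against parental (0.966%) and 3 in R1 in against out of drug (10.5%). Between untreated RT112 and untreated RT4, 5 of 9 passed (18.8%). With 9 genes, 1 call more or less moves the share by far more than most of these backgrounds, so the counts say little of the family as a whole, and the isoforms are given one by one. ALDH3A1 passed in 5 of the 16 comparisons, the most of the 9, and ALDH2 passed in 0.

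**Figure D1:**
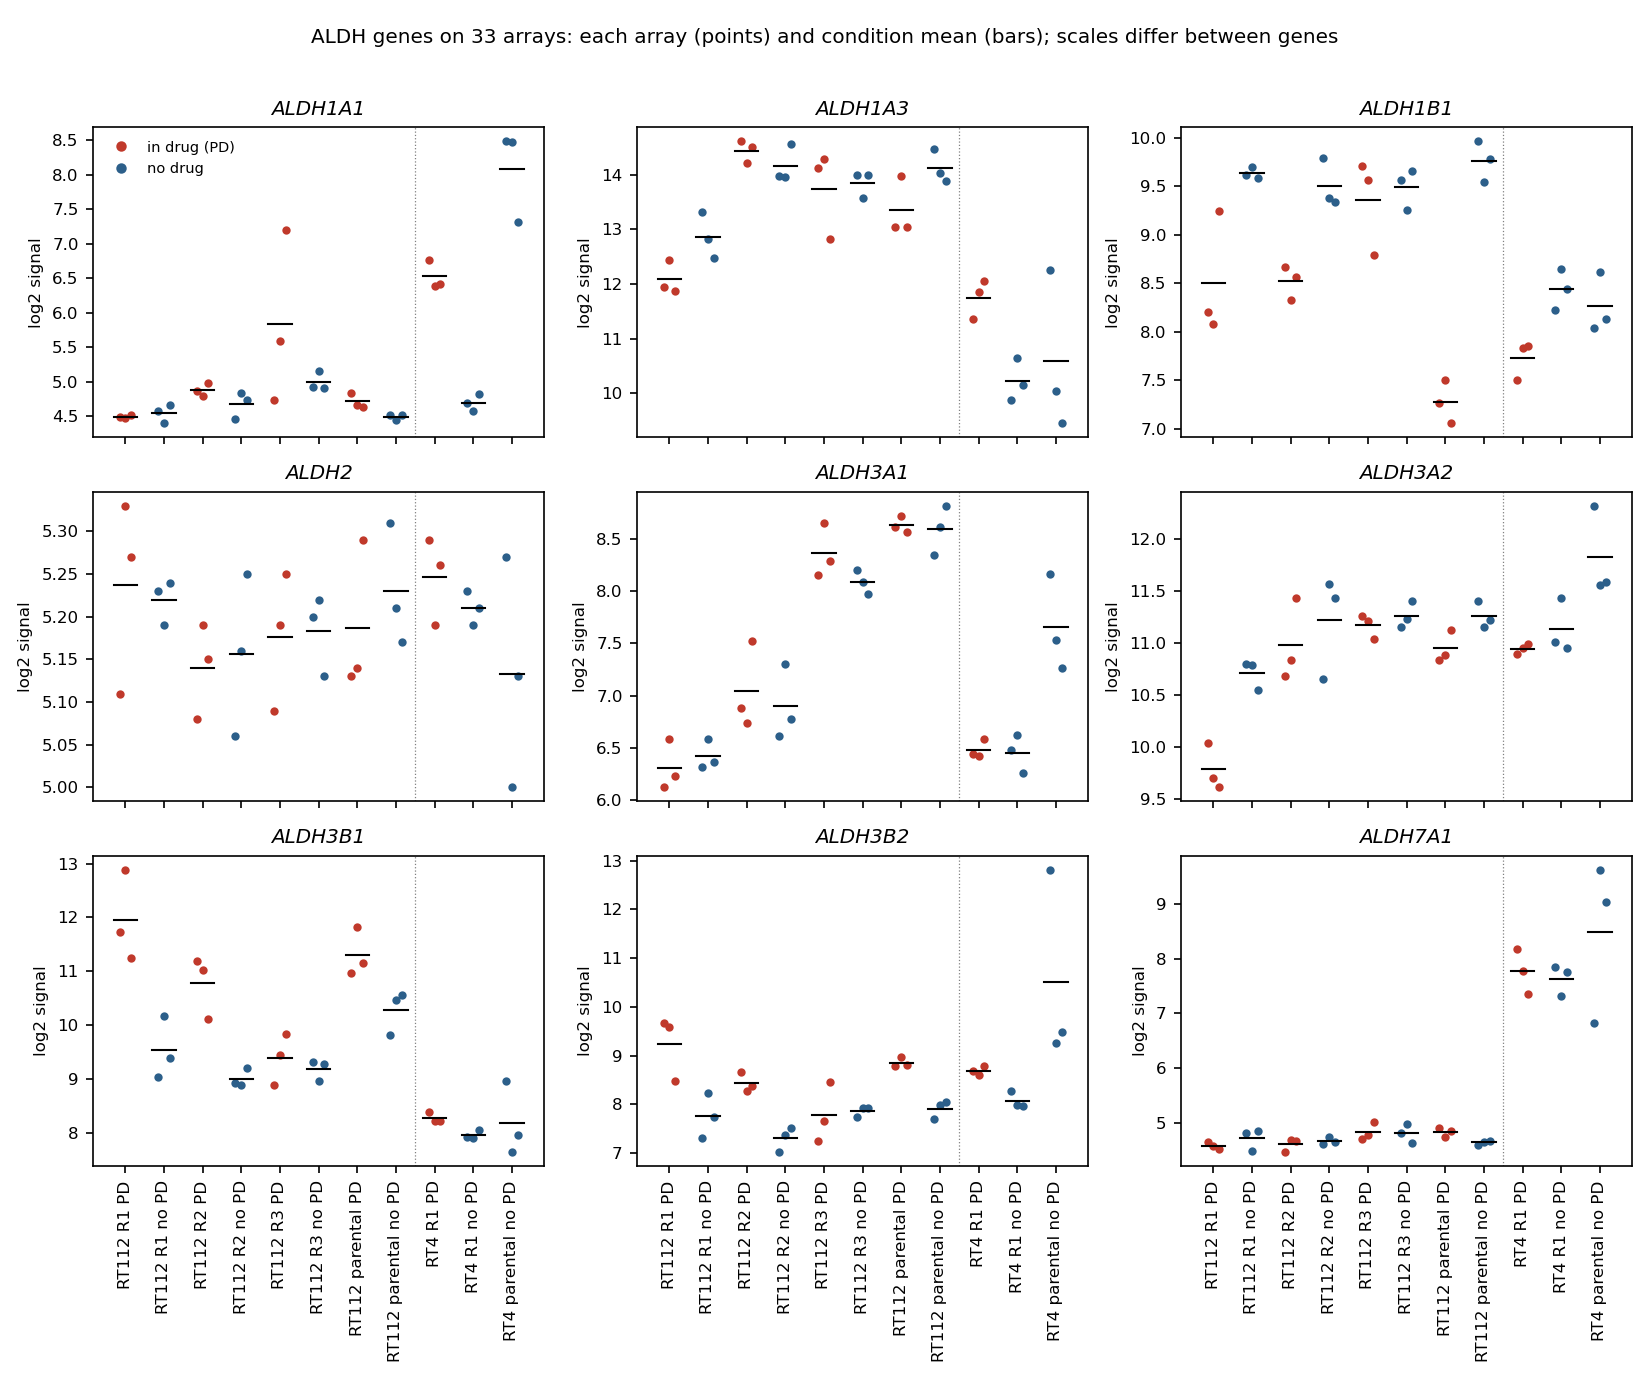
Log2 signal (y axis, a separate scale for each gene) of the 9 measured ALDH genes on all 33 arrays, by condition (x axis). Points are arrays, red in drug and blue without, short lines are the means of 3 arrays, and the dotted line divides RT112 from RT4. ALDH2 stays between 5.0 and 5.33, ALDH7A1 is above 6.8 in RT4 and at most 5.01 in RT112, and ALDH3A1 is low in R1 and R2 both in and out of drug.

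**Figure D2:**
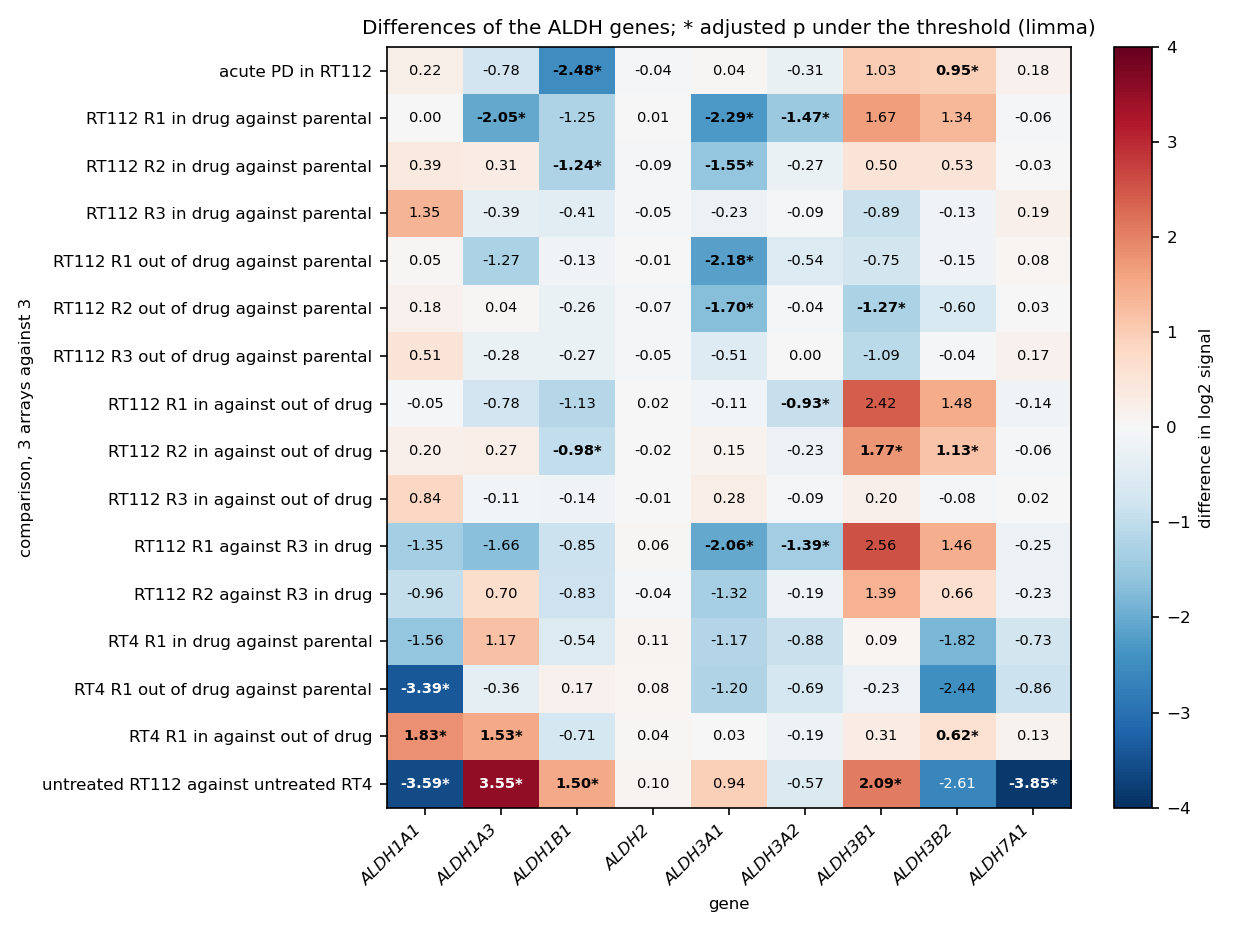
Difference in log2 signal (colour and printed value) of the 9 ALDH genes (columns) in the 16 comparisons (rows), with the first-named condition minus the second. A star and bold type mark an adjusted p under 0.01 (limma). The blue column of ALDH3A1 in R1 and R2, in and out of drug, and the opposite signs of ALDH1A1 and ALDH1A3 between the untreated lines can be read off directly.

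ALDH1A1 is a cytosolic retinaldehyde dehydrogenase and the isoform most often tied to stem-like tumour cells. In RT4 it was lowest in R1 out of drug and intermediate in R1 in drug. Out of drug, the 3 R1 arrays read 4.69, 4.58 and 4.82, against 8.48, 8.47 and 7.31 in untreated parental RT4. The ranges lie far apart, and the difference of -3.39 (SE 0.31, adjusted p = 0.00481) is a 10.5-fold fall that ends inside the background range. In drug, the R1 arrays read 6.77, 6.39 and 6.42, which is above every R1 array out of drug by 1.83 on average (SE 0.12, adjusted p = 0.000167, 3.56-fold). Against parental RT4, R1 in drug differed by -1.56 (SE 0.32, adjusted p = 0.0206), which did not pass, although the ranges do not overlap. Without parental RT4 replicate 3, the array with the lowest parental value, the difference was -1.95 (adjusted p = 0.00224) and passed. That rise in drug passed with each array left out in turn (adjusted p at most 0.00145). The fall in R1 out of drug did not pass when any of its own 3 arrays or parental replicate 2 was left out (adjusted p 0.0238 to 0.0269, differences -3.45 to -3.20), nor with the replicate number as a block (adjusted p = 0.0193).

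In RT112, ALDH1A1 lay near the background in nearly all conditions. R1 in drug read 4.49, 4.47 and 4.52, against 4.52, 4.44 and 4.52 in untreated parental RT112, a difference of 0.00. R3 in drug was the exception, with 4.74, 5.59 and 7.20, and its highest array lay between the RT4 arrays of R1 in drug and those of parental RT4. These 3 arrays gave a mean of 5.84 ± 1.25 (SD, n = 3) and a difference from parental cells of 1.35 (SE 0.58, adjusted p = 0.195) that did not pass. Without R3 in drug replicate 3 the difference was 0.67 (adjusted p = 0.124). R2 in drug read 4.86, 4.80 and 4.98, all above the parental arrays, and its difference of 0.39 (SE 0.08, adjusted p = 0.0102) lay just outside the threshold. It passed after another quantile normalization (adjusted p = 0.00989) and with a trended and robust prior (adjusted p = 0.00587). Over the other limma settings its adjusted p reached 0.45, and it did not pass with any array left out (adjusted p 0.0185 to 0.0429). R3 out of drug, at 4.93, 5.16 and 4.91, differed by 0.51 (SE 0.09, adjusted p = 0.0145).

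ALDH1A3, the other measured retinaldehyde dehydrogenase and a main source of ALDH activity in several carcinomas, fell in RT112 R1. R1 in drug read 11.94, 12.44 and 11.88, against 14.47, 14.04 and 13.89 in untreated parental RT112. The groups do not overlap, and the difference of -2.05 (SE 0.21, adjusted p = 0.00181) is a 4.13-fold fall. It did not pass without R1 in drug replicate 1 or without parental replicate 2 (differences -1.97 and -2.09, adjusted p = 0.0119 and 0.0122), nor with a replicate block (adjusted p = 0.0136). Out of drug, R1 read 13.31, 12.82 and 12.47, with a difference from parental cells of -1.27 (SE 0.23, adjusted p = 0.0231) that passed with the block (adjusted p = 0.00322). Acute PD gave 13.04, 13.97 and 13.05, and its second array overlaps the parental range. The acute difference was -0.78 (SE 0.28, adjusted p = 0.0671) and passed without that array (-1.09, adjusted p = 0.00514). R2 and R3 stayed near the parental level, with differences in drug of 0.31 (adjusted p = 0.234) and -0.39 (adjusted p = 0.585). The R3 value rests on replicate 3 at 12.82, without which it was 0.07 (adjusted p = 0.837). R1 in drug against R3 in drug differed by -1.66 (SE 0.42, adjusted p = 0.0469), and by -2.12 (adjusted p = 0.00908) without the same R3 array.

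In RT4, ALDH1A3 rose in R1 in drug relative to R1 out of drug. The 3 arrays in drug read 11.35, 11.85 and 12.05, against 9.87, 10.64 and 10.14 out of drug, and the ranges do not overlap. The difference was 1.53 (SE 0.24, adjusted p = 0.00475, 2.89-fold). It did not pass without R1 in drug replicate 2 or 3 or R1 out of drug replicate 1 or 3 (differences 1.36 to 1.50, adjusted p 0.0141 to 0.0239), nor in 1 fit over the 9 RT4 arrays (adjusted p = 0.154). Parental RT4 spread widely, at 12.26, 10.03 and 9.45, so that its first array lies above all R1 arrays. R1 in drug against parental RT4 was 1.17 (SE 0.67, adjusted p = 0.322), and 2.01 (adjusted p = 0.00297) without that first array.

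ALDH1B1 and ALDH2 are mitochondrial enzymes that oxidise acetaldehyde and aldehydes from lipid peroxidation. ALDH1B1 fell after acute PD on every array, and it was lower in R2 in drug. Acute treatment gave 7.27, 7.50 and 7.06, against 9.96, 9.54 and 9.78 in untreated RT112, a gap of more than 2 units between the nearest arrays. The fall of 2.48 on the log2 scale (SE 0.15, adjusted p = 7.12e-05) is 5.59-fold, and it passed with each array left out in turn (adjusted p at most 0.000899). In R2 in drug the arrays read 8.67, 8.33 and 8.56, lower than parental cells by 1.24 (difference -1.24, SE 0.14, adjusted p = 0.000782, 2.36-fold), which also passed with each array left out (adjusted p at most 0.00558). R2 out of drug was back at 9.79, 9.38 and 9.34, a range that overlaps the parental one. R2 in against out of drug differed by -0.98 (SE 0.15, adjusted p = 0.00589, 1.98-fold), a call that did not pass when any of the 6 arrays was left out (adjusted p 0.0105 to 0.0237).

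In R1 in drug, ALDH1B1 read 8.20, 8.08 and 9.24, so that replicate 3 stands apart from the other two and close to the R1 arrays out of drug (9.62, 9.70 and 9.58). Against parental cells it differed by -1.25 (SE 0.32, adjusted p = 0.0385). Without R1 in drug replicate 3 it was -1.62 (adjusted p = 0.000683) against parental cells and -1.49 (adjusted p = 0.000455) against R1 out of drug, and both passed. R3 showed no such fall at this number of arrays, with 9.71, 9.56 and 8.79 in drug (difference from parental -0.41, SE 0.25, adjusted p = 0.357). R2 against R3 in drug differed by -0.83 (adjusted p = 0.0785), and by -1.11 (adjusted p = 0.00701) without R3 in drug replicate 3. In RT4, R1 in drug read 7.50, 7.83 and 7.85, against 8.22, 8.65 and 8.44 out of drug. The difference of -0.71 (SE 0.14, adjusted p = 0.0123) was just outside the threshold and passed with a filter on low values (adjusted p = 0.00872) and with the replicate block (adjusted p = 0.0043).

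ALDH2, the main acetaldehyde dehydrogenase of ethanol breakdown, stayed between 5.0 and 5.33 on all 33 arrays. The condition means differed by at most 0.10 in RT112 and 0.12 in RT4, and every value lay within the background range.

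ALDH3A1 and ALDH3A2 are paralogs, both on chromosome 17. ALDH3A1 is a cytosolic enzyme of corneal and other epithelia that detoxifies aromatic and medium-chain aldehydes and oxazaphosphorine drugs. It was low in R1 and R2 and stayed low after drug withdrawal. R1 in drug read 6.12, 6.58 and 6.23 and R1 out of drug 6.32, 6.58 and 6.36, against 8.35, 8.62 and 8.82 in untreated parental RT112. The differences from parental cells were -2.29 in drug (SE 0.17, adjusted p = 0.000688, 4.88-fold) and -2.18 out of drug (SE 0.14, adjusted p = 0.000943, 4.52-fold). R2 read 6.88, 6.74 and 7.52 in drug and 6.61, 7.30 and 6.78 out of drug, all below the parental range. Its differences from parental cells were -1.55 in drug (SE 0.22, adjusted p = 0.00217, 2.93-fold) and -1.70 out of drug (SE 0.20, adjusted p = 0.00329, 3.25-fold). Between growth in and out of drug, the change was -0.11 for R1 and 0.15 for R2, and neither passed. R1 in drug passed with each array left out (adjusted p at most 0.00719). R1 out of drug did not pass without parental replicate 2 (-2.17, adjusted p = 0.0123). R2 in drug did not pass without R2 in drug replicate 1, parental replicate 2 or parental replicate 3 (-1.44 to -1.54, adjusted p 0.0117 to 0.013), and R2 out of drug not without R2 out of drug replicate 3, parental replicate 2 or parental replicate 3 (-1.59 to -1.69, adjusted p 0.0163 to 0.0196).

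Acute PD did not move ALDH3A1 in the same way. Treated cells read 8.62, 8.72 and 8.57, inside the parental range, with a difference of 0.04. R3 stayed near the parental level, at 8.16, 8.65 and 8.29 in drug (difference -0.23, SE 0.17, adjusted p = 0.436) and 8.20, 8.09 and 7.97 out of drug (difference -0.51, SE 0.13, adjusted p = 0.0459). Set against R3 in drug directly, R1 in drug was lower by 2.06 (difference -2.06, SE 0.18, adjusted p = 0.00287, 4.16-fold). This did not pass without R1 in drug replicate 1, R3 in drug replicate 1 or R3 in drug replicate 2 (-1.91 to -2.16, adjusted p 0.0126 to 0.0192), nor with the replicate block (adjusted p = 0.0277). R2 against R3 in drug was -1.32 (SE 0.23, adjusted p = 0.018) and passed without R2 in drug replicate 3 (-1.56, adjusted p = 0.00703). In RT4, R1 read 6.44, 6.42 and 6.58 in drug and 6.48, 6.62 and 6.26 out of drug, against 8.17, 7.53 and 7.26 in parental cells. The ranges do not overlap, but neither difference passed (-1.17, SE 0.22, adjusted p = 0.0158 in drug and -1.20, SE 0.24, adjusted p = 0.0392 out of drug). Without parental RT4 replicate 1 the difference in drug was -0.92 (adjusted p = 0.00304) and passed.

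ALDH3A2, the fatty aldehyde dehydrogenase of the endoplasmic reticulum, whose loss causes Sjögren-Larsson syndrome, fell in R1 in drug. R1 in drug read 10.04, 9.70 and 9.61, against 11.40, 11.15 and 11.22 in untreated RT112, and every other RT112 array was at 10.55 or above. The fall of 1.47 on the log2 scale (SE 0.14, adjusted p = 0.00126, 2.78-fold) passed except without parental replicate 3 (-1.49, adjusted p = 0.0107). R1 out of drug, at 10.80, 10.79 and 10.55, lay between, and its difference from parental cells of -0.54 (SE 0.11, adjusted p = 0.0312) did not pass. R1 in against out of drug was -0.93 (SE 0.15, adjusted p = 0.00967, 1.91-fold), a call near the threshold that did not pass when any array other than R1 in drug replicate 3 was left out (-0.89 to -1.06, adjusted p 0.0174 to 0.046), with array centring (adjusted p = 0.0146), with a trended and robust prior (adjusted p = 0.0152) or with a replicate block (adjusted p = 0.019). R1 against R3 in drug was -1.39 (SE 0.14, adjusted p = 0.00389, 2.61-fold). It passed only without R1 in drug replicate 3 among the 6 arrays left out in turn (otherwise -1.34 to -1.52, adjusted p 0.0103 to 0.0321), and not with the block (adjusted p = 0.0318). In RT4, R1 in drug read 10.89, 10.95 and 10.99, against 12.32, 11.56 and 11.59 in parental cells, a difference of -0.88 (SE 0.21, adjusted p = 0.0333) that passed without parental replicate 1 (-0.63, adjusted p = 0.00372).

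ALDH3B1 and ALDH3B2 are paralogs on chromosome 11 whose products act on aldehydes of membrane lipids. How far the probes of each also read the other transcript was not tested. In RT112 R1 and R2 both had higher means in drug than out of drug, a difference that passed in R2 only. In R3 neither gene passed. Over the 24 RT112 arrays their log2 signals had a Pearson correlation of 0.91, the highest among the pairs of these genes. That value describes 8 conditions in which arrays share their cell line and treatment. ALDH3B1 in R2 read 11.19, 11.03 and 10.12 in drug, against 8.92, 8.89 and 9.21 out of drug, and the ranges lie almost 1 unit apart. The difference was 1.77 (SE 0.28, adjusted p = 0.00616, 3.42-fold). ALDH3B2 in R2 read 8.67, 8.27 and 8.38 in drug, against 7.03, 7.38 and 7.52 out of drug, with a difference of 1.13 (SE 0.16, adjusted p = 0.00471, 2.19-fold). The ALDH3B1 call did not pass when any array but R2 in drug replicate 3 was left out (1.57 to 1.87, adjusted p 0.0201 to 0.0275). The ALDH3B2 call did not pass without R2 in drug replicate 1 or 2 or R2 out of drug replicate 2 or 3 (1.02 to 1.24, adjusted p 0.0149 to 0.0222). With a replicate block the adjusted p was 0.0199 for ALDH3B1 and 0.0192 for ALDH3B2.

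R1 showed the highest ALDH3B1 levels of the study and the widest spread between arrays. ALDH3B1 in R1 read 11.72, 12.88 and 11.25 in drug, against 9.04, 10.17 and 9.39 out of drug. The difference of 2.42 (SE 0.47, adjusted p = 0.0199, 5.34-fold) did not pass, although the ranges do not overlap. ALDH3B2 in R1 read 9.67, 9.59 and 8.48 in drug, against 7.31, 8.23 and 7.75 out of drug, a difference of 1.48 (SE 0.38, adjusted p = 0.0468). Without R1 in drug replicate 3, the array with the lowest values of both genes, the differences were 2.77 for ALDH3B1 (adjusted p = 0.00584) and 1.87 for ALDH3B2 (adjusted p = 0.00371), and both passed. Against untreated parental cells, at 9.81, 10.47 and 10.56 for ALDH3B1 and 7.71, 7.98 and 8.04 for ALDH3B2, R1 in drug was higher by 1.67 (adjusted p = 0.0427) and 1.34 (adjusted p = 0.0336), and neither passed. Without the same array the ALDH3B2 difference was 1.72 (adjusted p = 0.000396). The ALDH3B1 difference did not pass with any array left out (1.2 to 2.02, adjusted p 0.0123 to 0.138). In 1 fit over the 24 RT112 arrays, whose spread is pooled over all 8 conditions, both genes passed against parental cells (adjusted p = 0.00206 for ALDH3B1 and 0.00149 for ALDH3B2) and against R1 out of drug (adjusted p = 9.12e-05 and 0.000766).

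Acute PD raised ALDH3B2 in parental cells. Treated cells read 8.79, 8.97 and 8.81 for ALDH3B2, all above the parental arrays, a difference of 0.95 (SE 0.11, adjusted p = 0.000603, 1.93-fold) that passed with each array left out (adjusted p at most 0.00305) but not in 1 fit over the 24 RT112 arrays (adjusted p = 0.0187). They read 10.96, 11.82 and 11.15 for ALDH3B1, a difference of 1.03 (SE 0.28, adjusted p = 0.0248, 2.04-fold) that did not pass, except with the replicate block (adjusted p = 0.00802). Out of drug, the mean of ALDH3B1 lay below that of untreated parental cells in all 3 derivatives, but the R1 range overlaps the parental one. The difference was -0.75 in R1 (SE 0.31, adjusted p = 0.211), -1.27 in R2 (SE 0.21, adjusted p = 0.00912, 2.42-fold) and -1.09 in R3 (SE 0.20, adjusted p = 0.0179). It passed in R2 only. The R2 call did not pass when any of the 3 R2 arrays or parental replicate 2 or 3 was left out (-1.13 to -1.37, adjusted p 0.0232 to 0.0398), with array centring (adjusted p = 0.011) or in 1 fit over the RT112 arrays (adjusted p = 0.0296), and R3 passed without parental replicate 1 (-1.33, adjusted p = 0.0073). ALDH3B2 out of drug differed from parental cells by -0.60 in R2 (SE 0.15, adjusted p = 0.0355, and 0.00937 with the replicate block). In R3, neither gene differed between in and out of drug by more than its spread. ALDH3B1 in R3 read 8.89, 9.45 and 9.84 in drug, against 9.32, 8.97 and 9.28 out of drug (difference 0.20, SE 0.24, adjusted p = 0.969). ALDH3B2 in R3 read 7.24, 7.65 and 8.46 in drug, against 7.74, 7.93 and 7.93 out of drug (difference -0.08, SE 0.29, adjusted p = 0.996). Set against R3 in drug directly, neither gene passed in R1 or R2 in drug. The ALDH3B1 difference was 2.56 for R1 (adjusted p = 0.0189) and 1.39 for R2 (adjusted p = 0.0498). For ALDH3B2 it was 1.46 for R1 (adjusted p = 0.0743) and 0.66 for R2 (adjusted p = 0.221).

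**Figure D3:**
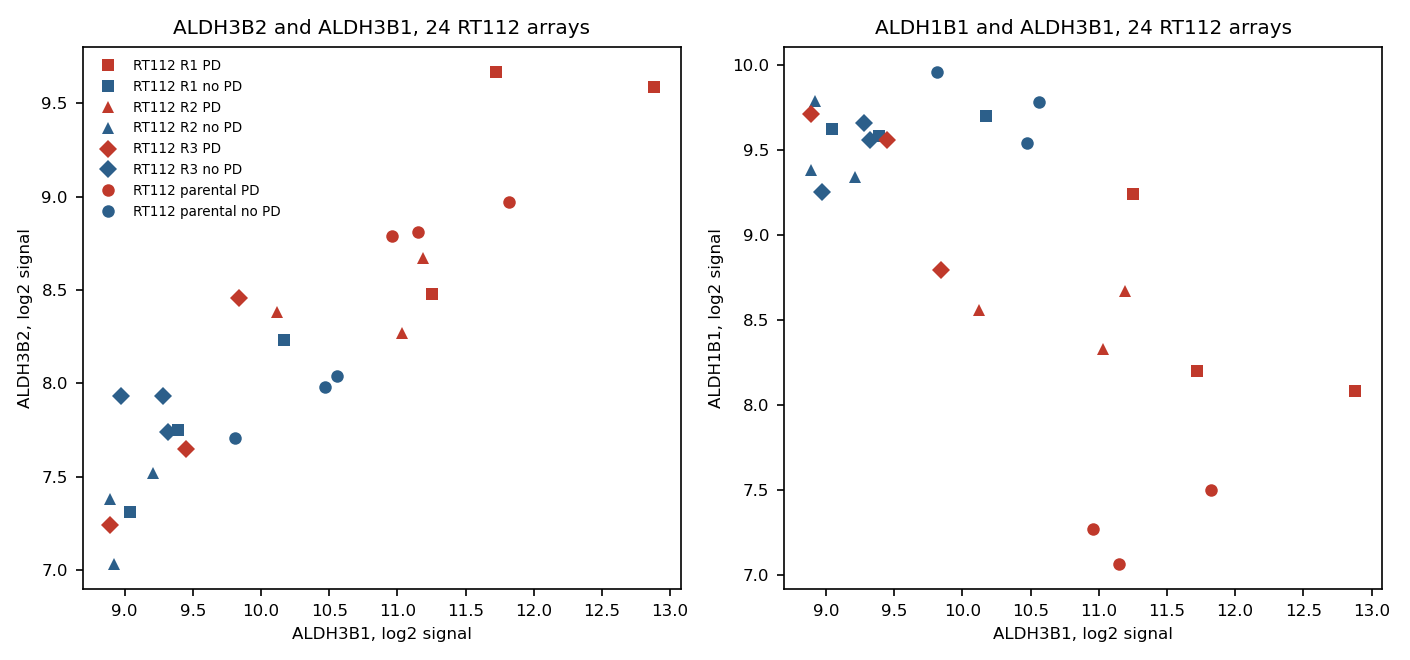
Log2 signals on the 24 RT112 arrays, with ALDH3B1 on the x axis and ALDH3B2 (left) or ALDH1B1 (right) on the y axis. Each symbol is 1 array, shapes give the derivative, and red marks growth in drug. ALDH3B2 runs with ALDH3B1 (r = 0.91) and ALDH1B1 runs against it (r = -0.71). Replicates 1 and 2 of R3 in drug lie among the arrays without drug. Replicate 3 of R3 in drug lies outside them, at 8.46 for ALDH3B2 (at most 8.23 without drug) and 8.79 for ALDH1B1 (at least 9.25 without drug).

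In RT4 the differences of both genes between R1 in and out of drug were small. ALDH3B1 in R1 read 8.39, 8.22 and 8.22 in drug, against 7.93, 7.90 and 8.06 out of drug, a difference of 0.31 (SE 0.08, adjusted p = 0.0387). ALDH3B2 in R1 read 8.69, 8.61 and 8.78 in drug, against 8.27, 7.99 and 7.97 out of drug, a difference of 0.62 (SE 0.10, adjusted p = 0.0061, 1.53-fold) that passed. It did not pass when any of the 3 R1 arrays in drug or R1 out of drug replicate 2 or 3 was left out (0.56 to 0.66, adjusted p 0.0168 to 0.0297), with the replicate block (adjusted p = 0.0117), or in 1 fit over the 9 RT4 arrays (adjusted p = 0.749). Parental RT4 read 12.81, 9.26 and 9.48 for ALDH3B2, so its first array stands more than 3 units above the others, while ALDH3B1 on the same arrays was 8.96, 7.65 and 7.96. R1 in drug against parental RT4 differed by -1.82 for ALDH3B2 (SE 0.88, adjusted p = 0.238), and by -0.68 (adjusted p = 0.00683) without that array. R1 out of drug against parental RT4 differed by -2.44 (SE 0.89, adjusted p = 0.189), and by -1.29 (adjusted p = 0.00665) without it.

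ALDH7A1 (antiquitin), an enzyme of lysine breakdown that also handles betaine aldehyde, divided the cell lines. Untreated RT112 read 4.60, 4.65 and 4.67, against 6.83, 9.62 and 9.03 in untreated RT4, a difference of -3.85 (SE 0.65, adjusted p = 0.00434, 14.5-fold). All 24 RT112 arrays were between 4.47 and 5.01, within the background range, and no RT112 comparison passed. Within RT4, R1 read 8.17, 7.77 and 7.36 in drug and 7.84, 7.31 and 7.75 out of drug. Neither differed from parental cells past the threshold (-0.73, adjusted p = 0.541 and -0.86, adjusted p = 0.564). Without parental RT4 replicate 1, the low array, R1 in drug differed by -1.56 (adjusted p = 0.00928), which passed, and R1 out of drug by -1.69 (adjusted p = 0.0133), which did not. The difference between the lines was -4.68 (adjusted p = 1.81e-05) without that array, did not pass when any other array was left out (-3.29 to -3.87, adjusted p 0.0116 to 0.0198), and had an adjusted p of 0.0108 with array centring.

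The isoforms of the untreated lines differed in both directions. Untreated RT112 was lower than untreated RT4 in ALDH1A1 (-3.59, SE 0.31, adjusted p = 0.000235, 12.1-fold) and ALDH7A1. It was higher in ALDH1A3 (3.55, SE 0.67, adjusted p = 0.00699, 11.7-fold), in ALDH1B1 (1.50, SE 0.18, adjusted p = 0.00106, 2.82-fold) and in ALDH3B1 (2.09, SE 0.36, adjusted p = 0.00468, 4.26-fold). The ALDH1A1 and ALDH1B1 calls passed with each array left out. The ALDH1A3 call passed only without parental RT4 replicate 1 (4.39, adjusted p = 5.73e-05) among the 6 arrays left out in turn (otherwise 2.99 to 3.68, adjusted p 0.0183 to 0.031), and its adjusted p was 0.0108 after another quantile normalization. The ALDH3B1 call did not pass without RT112 parental replicate 2 or 3 or parental RT4 replicate 2 or 3 (1.82 to 2.00, adjusted p 0.0153 to 0.0228), nor with the replicate block (adjusted p = 0.0192). ALDH3B2 differed by -2.61 without passing, and by -1.46 (adjusted p = 0.000395) without parental RT4 replicate 1. ALDH3A1 differed by 0.94 (adjusted p = 0.0249), and by 1.20 (adjusted p = 0.00187) without the same array. The line, its growth medium and its derivation cannot be told apart in this comparison.

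The effect of long-term drug in R1 (in drug minus untreated parental) was compared between the lines in 1 limma fit of 12 arrays. None of the 9 genes passed, beside 7.76% of all genes, with 6381 genes at an unadjusted p under 0.05. ALDH1A3 had an effect of -2.05 in RT112 and 1.17 in RT4, and the difference of -3.22 (SE 0.80) had an adjusted p of 0.0201. ALDH1A1 had effects of 0.00 and -1.56 (difference 1.56, SE 0.36, adjusted p = 0.015). ALDH3B2 had effects of 1.34 and -1.82 (difference 3.16, SE 1.06, adjusted p = 0.0707). ALDH3A1 was lower in both lines, by effects of -2.29 in RT112 and -1.17 in RT4 (difference -1.11, SE 0.30, adjusted p = 0.0308). Without parental RT4 replicate 1, 5 of the 9 passed, ALDH1A3 (-4.06, adjusted p = 9.8e-05), ALDH3A1 (-1.37, adjusted p = 0.0029), ALDH3A2 (-0.84, adjusted p = 0.00827), ALDH3B2 (2.01, adjusted p = 0.008) and ALDH7A1 (1.50, adjusted p = 0.00751). Without parental RT4 replicate 3, ALDH1A1 passed (1.95, adjusted p = 7.05e-05). The share of all genes was not counted with an array left out, so 5 of 9 has no background beside it.

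**Figure D4:**
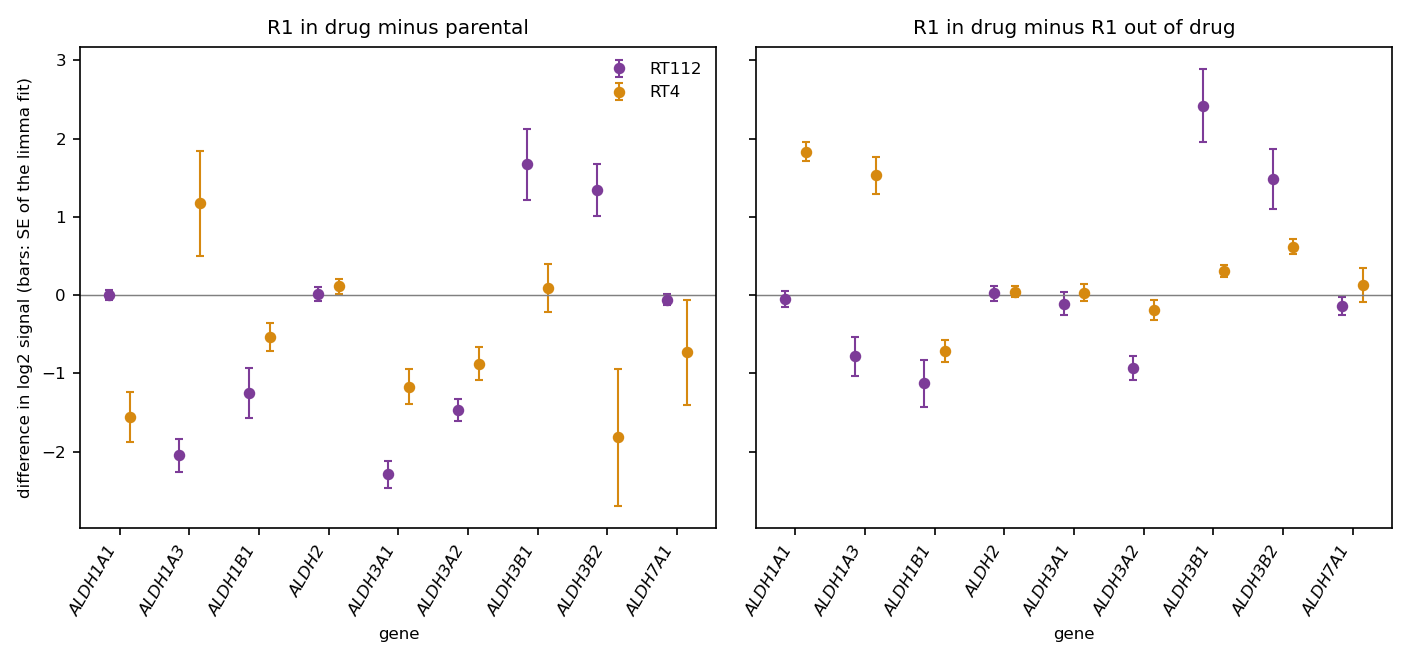
Differences in log2 signal (y axis) of the 9 ALDH genes (x axis) in R1 in drug against untreated parental cells (left) and against R1 out of drug (right), for RT112 (purple) and RT4 (orange). Points are limma estimates from 3 arrays against 3 and bars are their SE. ALDH1A3 (-2.05 and 1.17) and ALDH3B2 (1.34 and -1.82) have opposite signs in the left panel, where the RT4 bars are wide.

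Ranked by mean, the conditions ordered differently for each isoform, and most neighbours in an order overlapped in range. A gap means that neighbours in the order did not overlap, and conditions further apart may still do so. For ALDH1A1 the order began with untreated parental RT4 (8.09), which did not overlap with R1 in drug of RT4 (6.53), and all later neighbours overlapped. For ALDH1A3 the first 7 places were RT112 conditions with overlapping neighbours, from R2 in drug (14.44) to R1 out of drug (12.87), and a gap separated these from R1 in drug (12.09). For ALDH1B1 the 4 RT112 conditions without drug and R3 in drug led, at means of 9.35 to 9.76. A gap lay between R3 in drug and the next, R2 in drug (8.52), and RT4 without drug also lay below R3 in drug. R1 in drug (8.51) overlapped R3 in drug through its replicate 3 (9.24, against a lowest R3 array of 8.79). A second gap lay before R1 of RT4 in drug (7.73) and acute PD (7.28). For ALDH3A1, acute PD, untreated parental RT112 and both R3 conditions led, and the only gap lay between R2 out of drug (6.90) and R1 of RT4 in drug (6.48). That gap was narrow, and R1 of RT4 out of drug (up to 6.62) overlapped R2 out of drug (from 6.61). For ALDH3A2, untreated parental RT4 led (11.82, with a gap to the next), and R1 of RT112 came last. The lowest parental RT4 array (11.56) still lay within the range of R2 out of drug (up to 11.57). R1 out of drug (10.71) lay below its neighbour, R1 of RT4 in drug. It overlapped R2 of RT112 in and out of drug, whose lowest arrays were 10.68 and 10.65. R1 in drug (9.78) lay below all other conditions. For ALDH3B1 the 3 highest were R1 in drug (11.95), acute PD (11.31) and R2 in drug (10.78). The only gap lay between R2 out of drug (9.01), the last of the RT112 conditions, and R1 of RT4 in drug (8.28). The lines still overlapped, since parental RT4 replicate 1 (8.96) lay above the lowest array of R2 out of drug (8.89).

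Of the remaining 9 human ALDH genes, all measured, ALDH6A1, ALDH16A1, ALDH1L1 and ALDH18A1 passed in at least 1 comparison and the others in none. After acute PD, ALDH6A1, the methylmalonate semialdehyde dehydrogenase of valine breakdown, rose to 10.40, 10.26 and 10.55, against 8.39, 9.17 and 9.27 in untreated RT112 (difference 1.46, SE 0.23, adjusted p = 0.00259, 2.75-fold). This did not pass without acute PD replicate 1 or 3 (adjusted p at most 0.0124). ALDH16A1 fell by 0.58 (SE 0.07, adjusted p = 0.000851) after acute PD and by 0.77 (SE 0.10, adjusted p = 0.00149) in R2 in drug, and both calls passed with each array left out. Its fall in R3 out of drug (-0.50, SE 0.07, adjusted p = 0.00822) did not pass when any of the 6 arrays was left out (adjusted p up to 0.0438). ALDH16A1 also differed from parental cells by -0.80 in R1 in drug (adjusted p = 0.0341) and -0.58 in R3 in drug (adjusted p = 0.0109), and neither passed. ALDH1L1, a folate enzyme, was lower than in parental cells in R1 and R2, in drug (-0.70 and -0.72) and out of drug (-0.69 and -0.64), with adjusted p between 0.00106 and 0.00479. Both these levels (4.81 to 5.06) and those of untreated parental RT112 (5.62 to 5.72) lie in the background range. Only the call in R2 in drug passed with each array left out (adjusted p at most 0.00741), and the call in R1 out of drug was lost when any of the 6 arrays was left out (up to 0.0371). ALDH1L1 in R3 also lay below the parental arrays, just outside the threshold, with differences of -0.60 in drug (adjusted p = 0.0106) and -0.45 out of drug (adjusted p = 0.0118). In RT4 R1 in drug, ALDH6A1 fell relative to parental cells by 0.63 (SE 0.09, adjusted p = 0.00562) and relative to R1 out of drug by 0.56 (SE 0.10, adjusted p = 0.00942). ALDH18A1, which makes the proline precursor pyrroline carboxylate, fell by 0.65 in RT4 R1 in drug relative to out of drug (SE 0.10, adjusted p = 0.00544). Each of these 3 RT4 calls was lost when any of 5 of its 6 arrays was left out (adjusted p up to 0.0425). None of the 9 passed between the untreated lines or in R1 and R2 of RT112 between in and out of drug. In the latter, ALDH6A1 differed by 1.95 in R1 (adjusted p = 0.0567) and 1.25 in R2 (adjusted p = 0.0284). Out of drug against parental cells, it differed by -1.70 in R2 (adjusted p = 0.0111) and -1.20 in R3 (adjusted p = 0.0292), without passing.

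Other aldehyde- and stress-related genes were counted in the same tests. Of 30 NRF2 targets written (genes of the oxidative stress response, among which ALDH3A1 is often counted), 27 were measured. After acute PD 2 rose and 14 fell, where 24.5% of all genes passed, with a median difference of -0.45 against 0.01 over all genes. The largest fall was that of the cystine transporter SLC7A11, with a mean of 6.36 after acute PD, against 9.86 in untreated RT112 (-3.51, adjusted p = 8.85e-05). The mean after acute PD lies at the upper end of the background range. In R1 in drug 2 rose and 11 fell (11.7% of all genes passed, median -0.76, all genes -0.01). The falls were led by the ketone and aldehyde reductase AKR1C2 at 8.45, against 13.28 in untreated RT112 (-4.83, adjusted p = 3.06e-05), and the glutathione peroxidase GPX2 (-4.06, adjusted p = 0.000214). The AKR1C genes are close copies, and how far their probes read one another was not tested. These named falls passed with each array left out. In R2 in drug 3 rose and 5 fell (18.0% of all genes passed), a count of falls that ran from 1 to 12 with an array left out, and in R3 in drug 1 rose and 1 fell (1.95%). In RT4 R1 in drug 1 rose and 3 fell (5.86% of all genes passed, median -0.74, all genes 0.03, with 0 to 5 falls with an array left out). Out of drug, 6 of the 27 were lower than in parental cells in RT112 R1 and none higher, where 1.45% of all genes passed, and the falls numbered 0 to 6 with an array left out.

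The alcohol and aldehyde reductases, which share the AKR genes with the NRF2 targets, numbered 21 measured of 23. In R1 in drug 0 rose and 7 fell, beside 11.7% of all genes. After acute PD 2 rose and 7 fell (24.5%), and in R2 in drug 1 rose and 2 fell (18.0%). With an array left out the falls numbered 6 to 8 in R1 and 1 to 7 in R2, so the count does not set R1 apart from R2. In R3 in drug only ADH5, the formaldehyde-clearing alcohol dehydrogenase, passed (1.12, adjusted p = 0.00281), beside 1.95% of all genes, and this call was lost when any of 4 arrays was left out (adjusted p up to 0.0251). Of the aryl hydrocarbon receptor targets, 6 of 8 were measured, and in R2 in drug 1 rose and 5 did not pass. CYP1A1, a monooxygenase and the classic target of this receptor, rose in R2 in drug to a mean of 11.72, against 4.83 in untreated RT112 (6.89, adjusted p = 3.01e-05), and it passed with each array left out. The untreated mean lies inside the background range, so the rise may be understated. Another target, TIPARP, fell in R2 in drug relative to R2 out of drug (-1.0, adjusted p = 0.00264, lost when any of 4 arrays was left out, adjusted p up to 0.0163). In R2 out of drug TIPARP was above untreated RT112 (8.08 against 7.35, adjusted p = 0.00381), a call that did not hold with every array left out. In R2 in drug, at 7.08, it did not pass against untreated RT112.

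Genes of retinoid metabolism and the retinoid receptors changed one by one, with 29 of 32 measured. DHRS9 is a retinol dehydrogenase that makes the retinaldehyde used by ALDH1A enzymes. Its mean was 5.81 after acute PD, 4.90 in R1, 4.73 in R2 and 7.73 in R3 in drug, against 10.16 in untreated RT112. The acute, R1 and R2 means lie inside the background range, so their falls may be understated. The differences were -4.34 (adjusted p = 5.2e-05), -5.26 (adjusted p = 9.59e-06), -5.42 (adjusted p = 3.57e-06) and -2.43 (adjusted p = 0.00169), and only that of R3 was lost with an array left out (parental replicate 2 or 3, adjusted p up to 0.0232). RDH10, another retinol dehydrogenase, rose in RT4 R1 in drug to 9.71, against 8.06 out of drug (1.65, adjusted p = 0.000243), a call that passed with each array left out. In RT112 R1 in drug RDH10 reached 13.73, against 9.82 in untreated RT112 (3.91, adjusted p = 0.00206, lost when any of 3 arrays was left out, adjusted p up to 0.0158). Over the 29 genes, 3 rose and 3 fell after acute PD, 2 and 2 in R1 in drug, 2 and 4 in R2 in drug, 0 and 3 in R3 in drug, and 6 and 0 in RT4 R1 in against out of drug, with medians between -0.06 and 0.06. The shares of all genes were 24.5%, 11.7%, 18.0%, 1.95% and 10.5%. With an array left out, the rises ran from 0 to 3 after acute PD, the falls from 1 to 3 in R2 and from 0 to 2 in R3 in drug, and the rises from 2 to 4 in RT4 R1.

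Of 21 drug tolerance and stem cell markers, all measured, 7 rose and 2 fell after acute PD, 6 rose and 1 fell in R1 in drug, 7 and 2 in R2 in drug, 1 and 0 in R3 in drug, and 3 and 2 in RT4 R1 in drug. The shares of all genes were 24.5%, 11.7%, 18.0%, 1.95% and 5.86%, and the medians of the list 0.14, 0.34, 0.22, 0.02 and 0.12. In R1 in drug the rises numbered 4 to 9 with an array left out and 2 with the replicate block, and in RT4 R1 in drug 0 to 3 with an array left out and 1 with the block. KDM6A, a histone demethylase, rose in R1 in drug to a mean of 11.35 (2.01, adjusted p = 0.000936) and in R2 in drug to 11.69 (2.35, adjusted p = 9.94e-05), against 9.34 in untreated RT112. KDM6A also rose in R3 in drug (11.00, difference 1.66, adjusted p = 0.00175), the one call in R3, and in RT4 R1 in drug to 11.21, against 9.72 in parental RT4 (1.48, adjusted p = 0.00131). ABCG2, a drug efflux pump tied to stem-like cells, fell in R1 in drug to 8.06 (-3.49, adjusted p = 0.000724) and in R2 in drug to 8.96 (-2.59, adjusted p = 0.000488), against 11.55 in untreated RT112. The R1 and R2 calls of KDM6A and ABCG2 passed with each array left out, and KDM6A in R1 had an adjusted p of 0.0107 with the block. KDM6A in R3 was lost when any of 4 arrays was left out (adjusted p up to 0.0232), and in RT4 without R1 in drug replicate 2 (adjusted p = 0.0101).

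For the 3 isoforms with the widest range of means over the RT112 conditions, the genes most like them were ranked among 5100 genes by Pearson correlation over the 24 RT112 arrays (8 conditions), as a description. ALDH3B1 (range 2.94) was followed most closely by SLC29A3 (r = 0.97), PEPD (0.97), EPB41L1 (0.96), CHD3 (0.96) and the urothelial transcription factor GATA3 (0.96). ALDH1B1 (range 2.48) was followed by SUPT16H (0.98), NUP98, ABCF2, MYO19 and TMEM138 (0.97 each). ALDH1A3 (range 2.35) had looser neighbours, the first of which was another ALDH, ALDH3A2 (0.76), followed by RPL24 (0.76), MRFAP1, PTMAP5 and GCH1 (0.75 each). Among the ALDH genes themselves, ALDH1B1 ran against ALDH3B2 (-0.77) and ALDH3B1 (-0.71), and ALDH3A2 ran with ALDH3A1 (0.61).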

How the data were processed

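The values are log2 signals that the authors made before deposit from Affymetrix Human Transcriptome Array 2.0 scans by RMA (background correction, quantile normalization and 1 summary a probe set). The labels name Affymetrix Expression Console and RMA, while the methods give Affymetrix Power Tools for the RMA step and Expression Console for quality checks. Replicates were not pooled. Of 70523 probe sets, 67528 are transcript clusters, 23781 with 1 gene symbol, 1543 with several and 42204 with none. The brightest probe set by mean over 33 arrays was kept for each symbol, which gave 22465 genes. No 2 arrays held identical values. Their number limits the precision.

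The genes, lists and tests were chosen with earlier results of these data known. The text names the 10 ALDH genes, other ALDH genes past the threshold, up to 3 genes of a list and comparison with the largest difference among those past it, and the 5 nearest neighbours of 3 ALDH genes. NRF2, aryl hydrocarbon receptor, retinoid, reductase and drug tolerance lists came from general knowledge.

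Comparisons used limma 3.58.1 (statmod 1.5.0) in R 4.3.3 on 3 arrays against 3, without a block, at an adjusted p of 0.01, and figures matplotlib 3.10.9. The fits were tested on simulated data. Arrays of the same replicate number deviated together (correlations 0.38, 0.28 and 0.11) in 1 of 16 comparisons, R3 out of drug against parental, by the data and not the labels. Alternatives were 1 fit over a cell line, a filter at the 30th percentile, a trended and robust prior, another quantile normalization, array centring, a replicate block, an adjusted p of 0.05, a log2 difference of at least 1, the methods' t-test and leaving out each array.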

Additional observations from a re-analysis of the deposited data

Results flagged for a closer look

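Opposite effects of long-term drug in the 2 lines marked out ALDH1A3 and ALDH3B2. For ALDH1A3, each of the 3 R1 arrays in drug lay below the parental mean in RT112 and above it in RT4, and the effects differed by -3.22. For ALDH3B2 the directions were the other way round, and the effects differed by 3.16. The test of the difference did not pass for either gene (limma over 12 arrays, adjusted p = 0.0201 for ALDH1A3 and 0.0707 for ALDH3B2). Parental RT4 replicate 1 read 12.26 for ALDH1A3 and 12.81 for ALDH3B2, against at most 10.03 and 9.48 on the other parental RT4 arrays. Without it both differences passed (ALDH1A3 -4.06, adjusted p = 9.8e-05, and ALDH3B2 2.01, adjusted p = 0.008). Groups of 3 arrays are too small for a check of single outlying arrays.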

How the results depend on the processing

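No difference that passed the threshold, before or under a setting, changed sign under that setting. Differences that did not pass could cross 0 with an array left out, as for ALDH1A3 in RT112 R3 in drug (-0.66 to 0.07) and in RT4 R1 out of drug (-0.93 to 0.48) against parental cells. Counts of the 9 genes past the threshold are given as the setting's count against the main one. In 1 fit over the arrays of the cell line, they were 1 against 2 after acute PD, 6 against 3 in R1 in drug, 1 against 2 in R2 out of drug, 4 against 1 in R1 in against out of drug, 6 against 2 in R1 against R3, 1 against 0 in R2 against R3, and in RT4 2 against 0 in drug, 2 against 1 out of drug and 1 against 3 in against out of drug. In 1 fit over all 33 arrays, 3 against 0 passed the test between the lines' R1 effects. At an adjusted p of 0.05, they were 6 in R1 and 4 in R2 in drug, 3 in R1 and 3 in R3 out of drug, 3 in R1 in against out of drug, 4 in R1 against R3, 2 in R2 against R3, and 3, 2 and 5 in RT4 in drug, out of drug and in against out of drug. With a log2 difference of at least 1, they were 1 after acute PD and 0 in R1 in against out of drug. Array centring gave 1 in R2 out of drug and 0 in R1 in against out of drug, and the trended and robust prior 0 in R1 in against out of drug. With the replicate block, they were 2 in R1 out of drug, 0 in R1 in against out of drug, 1 in R2 in against out of drug, 0 in R1 against R3 and 0 in RT4 R1 out of drug, and the block kept 0 in R3 out of drug, where the numbers pair the arrays. The methods' t-test, unadjusted at 0.05, gave 5 after acute PD, 6, 4, 3 and 3 in R1 in drug, R2 in drug, R1 out of drug and R3 out of drug, 4 in R1 in against out of drug, 5 and 2 in R1 and R2 against R3, and 3, 2 and 5 in RT4. After Benjamini-Hochberg at 0.05 it gave 1 in R2 out of drug, 0 in R1 in against out of drug, 1 in R2 in against out of drug and 0 in RT4 R1 out of drug. The cause of these changes was not tested. The share of all genes that passed was not counted for these settings or with an array left out. These counts therefore do not set the ALDH genes against other genes. By limma, 10167 of 22465 genes had an unadjusted p under 0.05 after acute PD.

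With each array left out in turn, the counts ran from 2 to 3 after acute PD, 2 to 5, 1 to 2 and 0 to 0 in R1, R2 and R3 in drug, 0 to 1, 0 to 2 and 0 to 1 in R1, R2 and R3 out of drug, 0 to 4, 0 to 2 and 0 to 0 in R1, R2 and R3 in against out of drug, 0 to 2 and 0 to 1 in R1 and R2 against R3, 0 to 5, 0 to 2 and 1 to 2 in RT4 in drug, out of drug and in against out of drug, 2 to 7 between the untreated lines and 0 to 5 between the R1 effects. A lone array was never left in a group. The filter on low values, another quantile normalization and choosing the brightest probe set over the cell line moved no count by over 1.5 times. Repeating the tests on every other probe set was not run, since each gene had 1. The signal of ALDH2, and in RT112 of ALDH1A1 and ALDH7A1, is limited by background. The alternatives for the wider gene lists (each array left out, the prior, both normalizations and the block) were chosen after seeing the data.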
